A study of Mus musculus with 2 samples.

Results

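The cells described here are the 400 cells of a DMSO library that held the most transcripts of the immediate-early genes Fos, Fosb and Egr1, out of 1602 cells kept from that library and 2456 from both libraries of the series. A barcode counted as a DMSO cell from 9320 total counts. For each cell the counts of the 3 genes were summed and divided by the cell's total, and the cells were ranked by this value into 4 groups of 400, 401, 401 and 400 cells from the lowest to the highest. The highest is called the immediate-early-high group and was set against the lowest. The choice used measured values, so the levels of Fos, Fosb and Egr1 are given as a description, and all other genes were measured in the same cells.

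The cells came from the mouse gastric organoid line Meta4, grown from the stomach corpus of mice with Mist1-CreERT2Tg/+, a tamoxifen-inducible Cre driven by Mist1, together with LSL-K-ras(G12D)Tg/+, an oncogenic K-ras allele that Cre switches on, and the labels mark it as dysplasia induction. One library was treated for 1 day with pyrvinium, an anthelmintic dye, and 1 with DMSO, its solvent. Both carry the same alleles, so no cells without the K-ras allele stand beside them, and each treatment is 1 library of 1 organoid line. The DMSO library held 331629 barcodes and the pyrvinium library 353485. No barcode of a kept cell was shared between the libraries.

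Immediate-early genes are transcribed without new protein synthesis when a growth factor, cytokine or stress signal reaches the cell, and most encode transcription factors. K-ras signals through Raf and MEK to ERK, which phosphorylates the ETS-family partners of serum response factor bound at the promoters of Fos and Egr1. Fos and Fosb pair with Jun proteins to form AP-1, Egr1 binds GC-rich sites, and the response is ended by proteins such as the Dusp phosphatases, which act on ERK and related kinases, and Zfp36, which speeds decay of the same short-lived RNAs. The genes are also known to respond to the handling of tissue while single cells are made.

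The promoters of 5 of these genes are shown because their transcripts mark or most strongly accompany the group. Fos and Fosb belong to the rule, and Klf2, Atf3 and Dusp1 had the highest lower bounds of the ratio among the AP-1, Egr-Ier-Klf-Nr4a and Dusp lists. Each run is the 250 bases before the RefSeq transcription start, 5′ to 3′ on the gene's strand, from build GRCm38.p6, which is not the build GRCm39 named for the counts. Capitals mark TGACG, the core of the cAMP response element, or CGTCA where it lies on the other strand, and the full element TGACGTCA in Dusp1.

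Fos: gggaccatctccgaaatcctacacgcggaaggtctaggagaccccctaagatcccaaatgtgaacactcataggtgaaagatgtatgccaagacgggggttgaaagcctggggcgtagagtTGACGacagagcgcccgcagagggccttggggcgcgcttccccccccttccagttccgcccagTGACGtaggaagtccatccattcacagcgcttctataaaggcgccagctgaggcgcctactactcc

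Fosb: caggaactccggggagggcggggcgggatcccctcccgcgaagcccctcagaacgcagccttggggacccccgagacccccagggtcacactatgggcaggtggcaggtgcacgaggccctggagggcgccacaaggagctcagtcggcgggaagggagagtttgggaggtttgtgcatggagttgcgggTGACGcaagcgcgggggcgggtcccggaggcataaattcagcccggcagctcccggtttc

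Klf2: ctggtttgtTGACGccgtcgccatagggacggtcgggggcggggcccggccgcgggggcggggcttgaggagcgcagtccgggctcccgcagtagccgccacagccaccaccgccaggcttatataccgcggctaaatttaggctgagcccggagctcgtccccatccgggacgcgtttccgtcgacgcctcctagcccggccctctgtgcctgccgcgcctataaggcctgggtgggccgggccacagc

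Atf3: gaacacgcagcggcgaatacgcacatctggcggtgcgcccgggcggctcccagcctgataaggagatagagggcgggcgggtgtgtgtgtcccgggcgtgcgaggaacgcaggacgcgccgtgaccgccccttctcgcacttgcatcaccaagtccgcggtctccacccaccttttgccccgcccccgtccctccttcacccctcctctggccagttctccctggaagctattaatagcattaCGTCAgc

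Dusp1: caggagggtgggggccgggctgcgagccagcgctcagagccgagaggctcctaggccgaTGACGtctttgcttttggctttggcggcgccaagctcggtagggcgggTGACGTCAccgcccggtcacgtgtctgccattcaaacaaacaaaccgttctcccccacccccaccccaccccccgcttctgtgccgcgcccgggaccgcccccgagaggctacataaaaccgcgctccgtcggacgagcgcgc

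These windows lie at chr12:85473640-85473889 on the plus strand for Fos, chr7:19310046-19310295 on the minus strand for Fosb, chr8:72318812-72319061 on the plus strand for Klf2, chr1:191183334-191183583 on the minus strand for Atf3 and chr17:26508473-26508722 on the minus strand for Dusp1. Counted from the start, this core began at -129 and -66 in Fos, at -60 in Fosb, at -241 in Klf2 and at -7 in Atf3. In Dusp1 the core began at -191 and the full element at -143. All 5 windows held the core, against 17.8% of 32851 RefSeq promoters of the same length searched on both strands, and the full element occurred in 1.55% of them. An Egr site, GCGNGGGCG, began at -50 in Fosb and at -199 in Klf2, against 4.70% of all promoters. Of the wider set of early-response genes, 36 were at least 1.5-fold higher in the immediate-early-high group and 23 were tested and not higher, where 13.8% of all tested genes were higher. The table held promoters of 32 of the 36, of which 14 had the core, and of 15 of the 23, of which 5 had it. The AP-1 site TGANTCA occurred in 2 of the 32 and 1 of the 15, against 6.75% of all promoters, and the ETS core CCGGAA in 5 of the 32 and 2 of the 15, against 12% of all promoters. The CArG box, which serum response factor binds, occurred in 2 of the 32 and in 0 of the 15, against 1.47% of all promoters. The Egr site occurred in 7 of the 32 and 4 of the 15, and the full element TGACGTCA in 4 and 1. A match is a description of the letters in the window only.

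The rule value, in counts of the 3 genes per 10000 counts of the cell, ran in one continuous decline with no gap at either edge. It lay between 10.3 and 57.0 in the immediate-early-high group, with a median of 16.1, and between 0 and 1.78 in the lowest group, with a median of 0.859. The last cell inside the high group had 10.289 (28 counts of 27213) and the first outside it 10.280 (19 counts of 18483). At the other edge the last cell inside the lowest group had 1.779 and the first outside it 1.784. In the lowest group 74 cells, 18.5%, had no count of any of the 3 genes. Only 1 of 854 pyrvinium cells, 0.117%, reached the edge of the DMSO high group. The exact binomial 95% interval, 0.00296% to 0.651%, treats the cells as independent draws from 1 library. It does not cover the spread between cultures. The libraries differed in depth, with a median of 31517 counts per cell for pyrvinium and 18592.5 for DMSO.

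**Figure D1:**
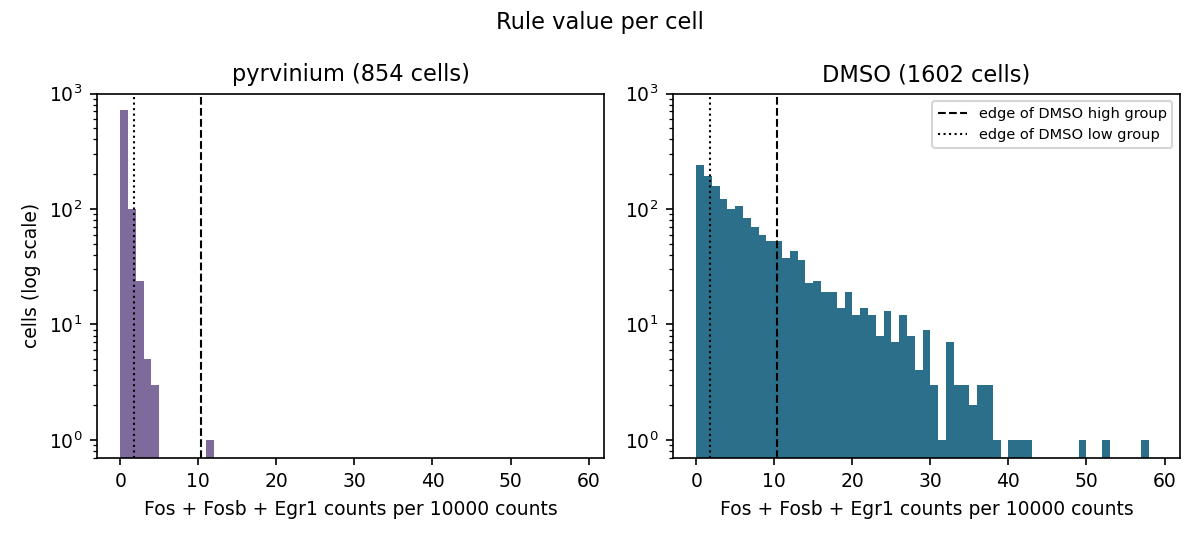
Number of cells (log axis) by summed Fos, Fosb and Egr1 counts per 10000 counts, for 854 pyrvinium cells (left) and 1602 DMSO cells (right). The dashed line marks the edge of the DMSO high group, which 1 pyrvinium cell reached, and the dotted line the edge of the DMSO low group.

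The median cell had 17325 counts and 3589 genes in the immediate-early-high group, against 18218.5 counts and 3530.5 genes in the lowest group. Mitochondrially encoded genes held 2.94% of counts in the high group and 2.24% in the lowest group, and ribosomal protein genes held 25% and 25.9%. The numbers of genes at least 1.5-fold higher and lower in the high group, 1194 and 620 over all its cells, were 1141 and 617 among cells with at most 5% mitochondrial counts and 1185 and 624 when totals left out mitochondrial and ribosomal protein genes. Across all 1602 cells the rule value had a Spearman correlation of -0.04 with the cell's total count.

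Fos, a bZIP protein of AP-1, had 64.0, 239, 521 and 1208 counts per 1000000 (CPM) from the lowest to the highest group. Fosb, its paralog, had 4.34, 15.1, 49.0 and 164 CPM in the same order. Egr1, a zinc-finger transcription factor, had 18.7, 62.5, 147 and 361 CPM. Because these genes chose the cells, their ratios hold chance counts as well. When each cell's counts were split at random in equal parts, with members chosen on one part and values taken from the other, the log2 ratio of high over low was 3.46 for Fos, 4.48 for Fosb and 3.47 for Egr1, beside 4.24, 5.24 and 4.27 on the counts that chose the cells.

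A Fos count was present in 400 of 400 members, an Egr1 count in 388 and a Fosb count in 336. All 3 genes were detected together in 325 members, 81.2%, and in 13 cells of the lowest group, 3.25%. With every cell thinned to 5000 counts, Fos was detected in 99.5% of members and 29.8% of the lowest group, Fosb in 54.2% and 2%, and Egr1 in 76.8% and 9%. Among pyrvinium cells thinned in the same way, 13.5% had Fos, 0.703% Fosb and 6.32% Egr1. No cell type that lacks these genes was at hand, so free RNA was read from DMSO barcodes with 100 to 500 counts. Those held 576 CPM of Fos, 74.9 CPM of Fosb and 189 CPM of Egr1, each between groups 3 and 4, so counts at the level of the lowest group cannot be told apart from free RNA. Fos supplied 69.7% of the members' counts of the 3 genes, Egr1 20.8% and Fosb 9.47%. In 18 members Egr1 had more counts than Fos, and in 1 Fosb did.

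Of 8647 genes with at least 100 counts in both groups together, 1194 (13.8%) were higher in the immediate-early-high group and 620 (7.17%) lower. Higher or lower here means at least 1.5-fold, with the whole exact binomial 95% interval of the ratio on that side of 1. With groups chosen inside clusters of like cells, the counts were 596 and 168. The median log2 ratio of all tested genes was 0.09. With 1 library there is no test and no p-value: the interval covers counting error in these summed cells and not the spread between cultures. The 5 early-response lists hold 79 genes besides Fos, Fosb and Egr1, of which 59 reached 100 counts. Of these 36 were higher, 1 was lower, and their median log2 ratio was 0.85.

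Summed over the 79 genes, the early-response transcripts made up 3165, 3844, 4753 and 6342 CPM from the lowest to the highest group, a 2-fold ratio of highest over lowest (log2 1.00, 95% interval 0.98 to 1.02). After thinning to 5000 counts the median cell had 31 such counts in the immediate-early-high group (quartiles 24 and 39) and 15.5 in the lowest group (quartiles 11 and 21). The 2 distributions overlapped, with 84% of high-group cells above the upper quartile of the lowest group and 61.2% above its 90th percentile. Pyrvinium cells had a median of 18 (quartiles 12 and 24).

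Among the AP-1 genes, 6 of 10 tested were higher and 0 lower, with a median log2 ratio of 1.13. The share over all tested genes was 13.8% higher and 7.17% lower. Atf3, a stress-induced bZIP factor, had 33.4, 69.1, 157 and 413 CPM from the lowest to the highest group, a 12.4-fold ratio of highest over lowest (log2 3.63, 95% interval 3.46 to 3.8). Jun, the main partner of Fos, had 89.8, 185, 319 and 584 CPM in the same order (log2 2.70, 2.60 to 2.81). Junb had 99.8, 136, 183 and 287 CPM (log2 1.53, 1.42 to 1.63). Each of the 3 rose at every step between groups. Jund (log2 1.10), Fosl2 (1.15) and Maff, a small Maf protein (1.24), were higher too. Fosl1, the Fos relative usually linked to sustained ERK signalling, was not among them, with 12.2 CPM in the high group and 16.6 CPM in the lowest (log2 -0.45, -0.82 to -0.09). Batf2 (log2 -0.29), Mafg (0.20) and Mafk (0.58) also stayed inside the 1.5-fold limit, and Batf, Batf3 and Jdp2 had too few counts.

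The Egr-Ier-Klf-Nr4a list had 11 of 13 tested genes higher and 0 lower, with a median of 1.29, beside 13.8% higher over all tested genes. Klf2, a zinc-finger factor known from endothelium and lymphocytes, had the largest ratio of the named genes outside the rule that were tested, 18.4-fold, with 1.96, 4.45, 13.9 and 36.1 CPM from the lowest to the highest group (log2 4.20, 3.54 to 4.95). Nr4a1, an orphan nuclear receptor, had 13.9, 22.4, 48.7 and 132 CPM (log2 3.25, 2.99 to 3.51). Csrnp1, a nuclear protein induced by several stimuli, had 22.5 CPM in the high group and 4.34 CPM in the lowest (log2 2.38). Klf6 (log2 2.25) and Ier2 (2.18) came next, with 221 and 162 CPM in the high group against 46.4 and 35.9 CPM in the lowest. Klf10 (1.53), Klf4 (1.29), Maff (1.24), Ier5 (1.20), Klf9 (0.94) and Klf5 (0.89) were higher by less. Myc, a growth-promoting target of many mitogens, stayed inside the limit with 71.8 CPM in the high group and 56.5 CPM in the lowest (log2 0.35, 0.18 to 0.51). Ier3 likewise had 216 and 151 CPM (log2 0.52). Srf, the serum response factor gene, had under 100 counts in both groups together and was not tested, as were Egr2, Egr3, Egr4, Ier5l, Nr4a2 and Nr4a3.

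**Figure D2:**
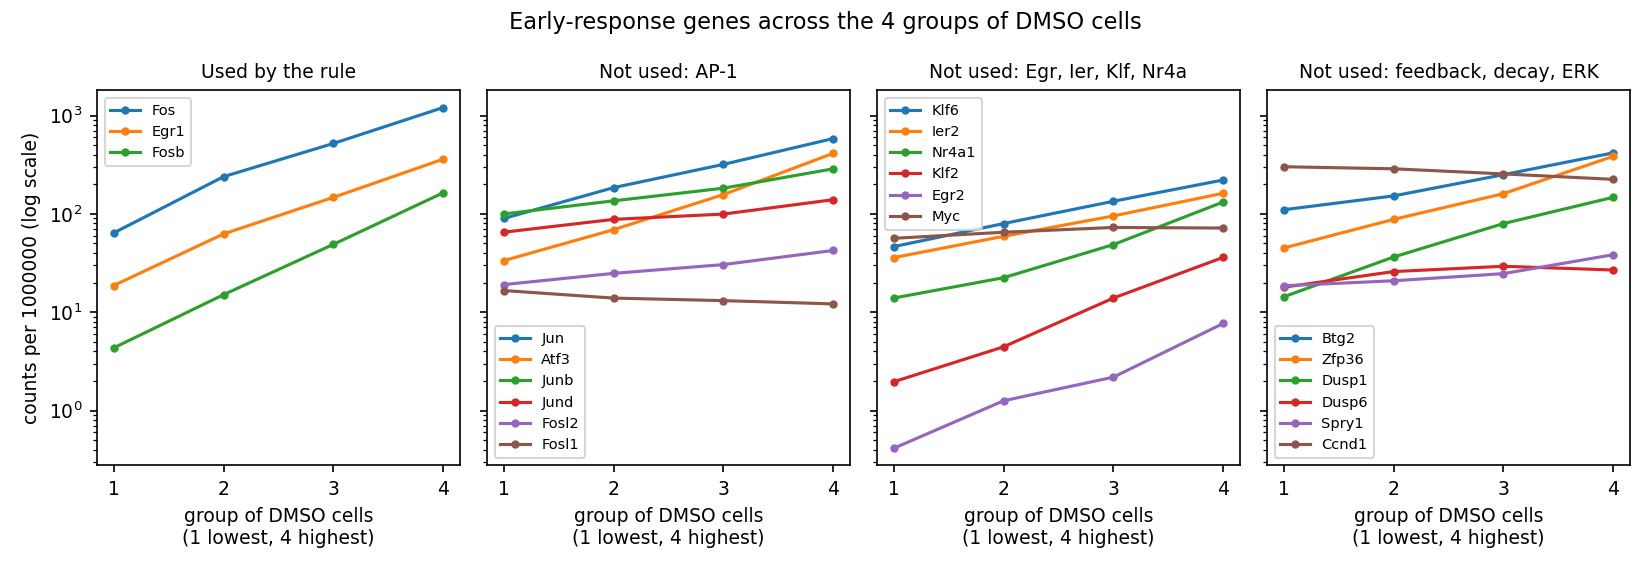
Counts per 1000000 (log axis) of early-response genes in the 4 groups of DMSO cells, from the lowest to the highest by Fos, Fosb and Egr1. The rule genes are in the left panel; among the others Klf2 reached 36.1 CPM and Atf3 413 CPM in the highest group, while Fosl1, Myc and Ccnd1 stayed within 1.5-fold of the lowest.

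Regulators of RNA decay, growth arrest and signalling had 15 of 19 tested genes higher and 0 lower, with a median of 0.95. Over all tested genes 13.8% were higher. Zfp36, which binds AU-rich elements and marks RNAs for decay, had 45.0, 88.0, 161 and 386 CPM from the lowest to the highest group (log2 3.10, 2.95 to 3.25). Rhob, a small GTPase, had 51.4 CPM in the high group and 9.29 CPM in the lowest (log2 2.47, 2.14 to 2.81). Btg2, an antiproliferative protein that recruits deadenylases, had 418 and 110 CPM (log2 1.92, 1.82 to 2.02). Trib1, a pseudokinase, had a log2 ratio of 1.74, and Ppp1r15a, which directs a phosphatase to the translation factor eIF2, one of 1.64. Zfp36l1 (1.24) and Btg1 (0.82), relatives of the same 2 families, were also higher. Their relatives Zfp36l2 (0.27) and Btg3 (0.00) were not. Cdkn1a, the p21 inhibitor of cyclin-dependent kinases, had 833 CPM in the high group and 744 CPM in the lowest (log2 0.16, 0.12 to 0.21), and Gadd45b 74.4 and 79.7 CPM (log2 -0.10).

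Feedback genes of the ERK pathway were split. Of 7 Dusp phosphatases tested 2 were higher and 0 lower, where 13.8% of all tested genes were higher and 7.17% lower. So few genes give no result about the family. Dusp1, a nuclear phosphatase of ERK, p38 and JNK, had 14.3, 36.4, 79.7 and 148 CPM from the lowest to the highest group (log2 3.36, 3.11 to 3.63). Dusp5, a nuclear phosphatase of ERK, had 25.3 CPM in the high group and 11.2 CPM in the lowest (log2 1.18, 0.85 to 1.53). Dusp6, the cytoplasmic ERK phosphatase used as a readout of ERK activity, had 26.9 and 18 CPM, just inside the 1.5-fold limit (log2 0.58, 0.29 to 0.87), and Dusp4 12.4 and 11 CPM (log2 0.16).

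Of 11 delayed ERK targets 3 were higher and 1 lower, with a median of 0.38. Spry1, an inhibitor of receptor tyrosine kinase signalling, had 38.5 CPM in the high group and 18.6 CPM in the lowest (log2 1.05), Errfi1, an inhibitor of the EGF receptor, 37.5 and 20.8 CPM (0.85), and Etv5, an ETS factor, 29.6 and 19.0 CPM (0.64). The ratio of Etv5 was -0.13 when cells were thinned to 5000 counts before they were ranked. Plaur, the urokinase receptor, was lower with 120 CPM in the high group and 198 CPM in the lowest (log2 -0.73, -0.84 to -0.62). Ccnd1, cyclin D1, had 225 and 302 CPM (log2 -0.43, -0.51 to -0.34), and Spry2, Spred1, Spred2, Etv4, Phlda1 and Epha2 lay between -0.30 and 0.48. The Ras, Raf, MEK and ERK components themselves had 4 of 21 tested genes higher and 0 lower, with a median of 0.26. Of all tested genes 13.8% were higher. Erbb2, a receptor of the EGF family, had 21.8 CPM in the high group and 11.8 CPM in the lowest (log2 0.89). Of 4 EGF-family ligands tested, Hbegf, itself an early-response gene, was higher with 112 and 29.9 CPM (log2 1.90, 1.71 to 2.09), and Areg with 104 and 71.0 CPM (0.56) was inside the limit.

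Targets of other pathways differed in how many of their genes moved with the group, where 13.8% of all tested genes were higher and 7.17% lower. Of 12 actin and adhesion genes controlled by serum response factor with its MRTF cofactors, 0 were higher and 0 lower, and Actb had 1413 CPM in the high group and 2016 CPM in the lowest (log2 -0.51). Of 11 NF-kappaB targets 5 were higher and 1 lower. Tnfaip3, a ubiquitin-editing inhibitor, had 27.9 CPM in the high group and 4.75 CPM in the lowest (log2 2.55), and Nfkbia, the inhibitor that holds NF-kappaB in the cytoplasm, 309 and 68.0 CPM (2.18). Nfkbiz (1.99) and the chemokine Cxcl1 (1.37) were higher too. The median of that list was 0.16, and its 5 remaining genes lay between -0.12 and 0.16. Of 12 STAT3 targets 8 were higher, among them Reg3g, an antimicrobial lectin (2.74), Socs3, the feedback inhibitor of cytokine receptors (1.39), and Junb, which the AP-1 list also holds.

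Id proteins, which block differentiation factors, and other TGF-beta and BMP response genes had 5 of 6 tested genes higher. Id1 had 446 CPM in the high group and 144 CPM in the lowest (log2 1.63, 1.54 to 1.72), Id3 79.8 and 22.5 CPM (1.83), and Id2 425 and 222 CPM (0.93). Of 7 Yap targets 3 were higher, led by Ccn1, a matricellular protein that is itself an early-response gene, with 178 and 45.2 CPM (1.98). Of 14 heat shock genes 3 were higher and 1 lower, with a median of 0.18, where 13.8% of all tested genes were higher. The co-chaperone Dnajb1 had 234 CPM in the high group and 80.3 CPM in the lowest (log2 1.54). Hspa1a, the stress-inducible Hsp70, had 7.92 and 5.16 CPM and its near-identical copy Hspa1b 16.1 and 13.5 CPM, values that counting could have split between the copies and that were chosen after they were seen. How the cells were handled is not given in the labels, and its part in the early-response transcripts was not tested.

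**Figure D3:**
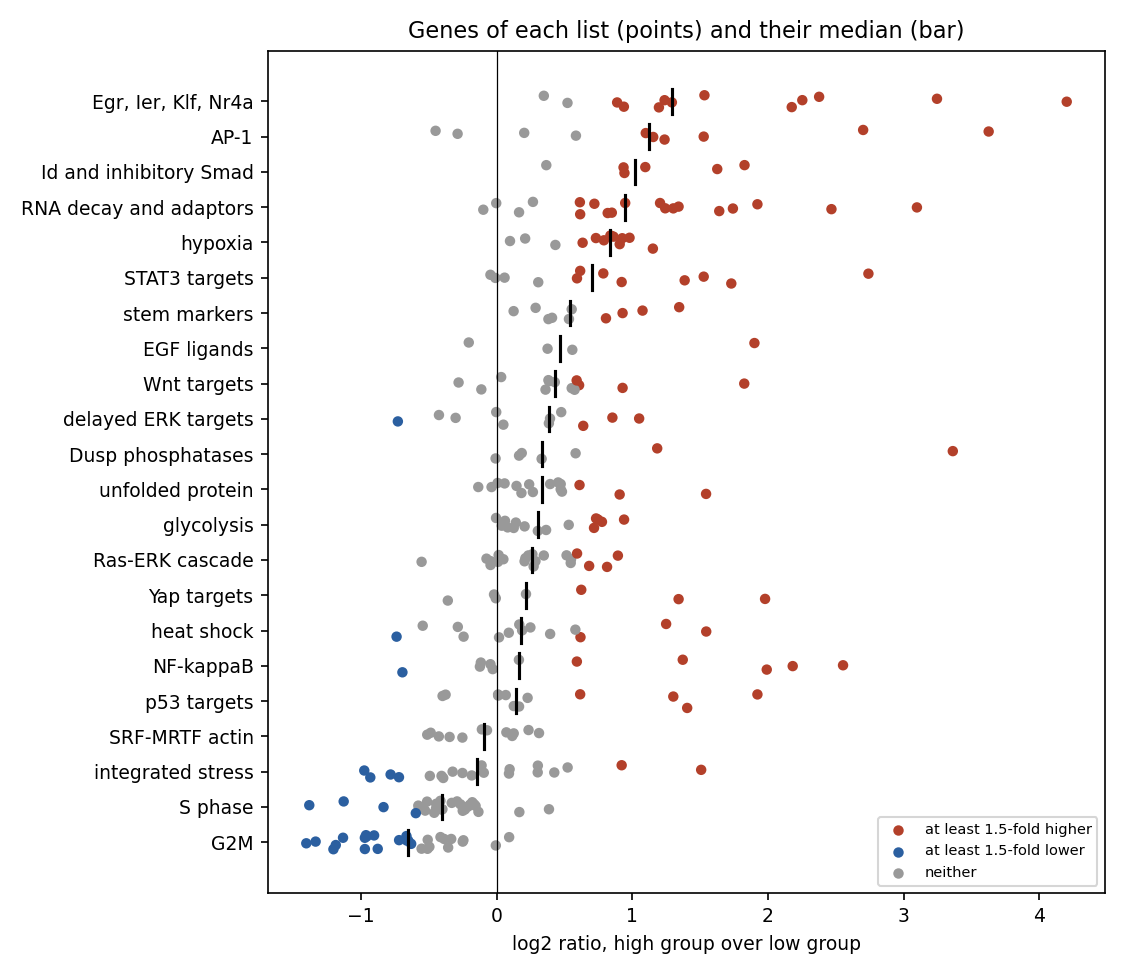
Log2 ratio of the immediate-early-high over the lowest group for every tested gene of 22 lists (points) with each list's median (bar); red and blue points passed the 1.5-fold limit upward and downward. Among the 22 lists shown, the Egr-Ier-Klf-Nr4a list (median 1.29) and AP-1 list (1.13) lie farthest right and the G2M list (-0.66) farthest left.

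Many mitotic transcripts were lower in the immediate-early-high group. The G2M list had 16 of 28 genes lower and none of them higher, at a median of -0.66 on the log2 scale. Its S-phase counterpart had 4 of 28 lower, with 0 higher and a median of -0.40. Of all tested genes 7.17% were lower and 13.8% higher. Cdc20, the activator of the anaphase-promoting complex, had 47.9 CPM in the high group and 127 CPM in the lowest (log2 -1.41), Aurka, a spindle kinase, 30.7 and 77.4 CPM (-1.34), and Tyms, thymidylate synthase, 81.7 and 179 CPM (-1.13). Hypoxia genes went the other way, with 10 of 13 higher, among them Vegfa, an angiogenic growth factor, with 77.7 and 35 CPM (1.15), and Bnip3, a mitophagy receptor, with 548 and 289 CPM (0.93). Of 15 glycolytic genes 5 were higher. These counts depended on the ranking: with cells ranked by Fosb alone 0 of 13 hypoxia genes were higher (median -0.04) and 0 of 15 glycolytic genes, with Egr1 alone 2 and 0, and against groups 2 and 3 in place of the lowest group 0 and 0. The G2M list had 9 of 27 genes lower with Fosb alone and 2 of 30 against groups 2 and 3. Of all tested genes, 645 of 8526 were higher and 273 lower with Fosb alone. Against groups 2 and 3, 457 of 9994 were higher and 268 lower. With Egr1 alone 1069 of 8344 were higher.

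Clusters of the DMSO cells were built without Fos, Fosb, Egr1 and the 5 early-response lists, which gave 6, numbered by size. Cluster 0, led by Chic1, Lrr1 and Plk4 and rich in S-phase and G2M transcripts, held 6.5% of the immediate-early-high group and 50.5% of the lowest group. Cluster 3, led by Lcn2, Pigr and Itln1, held 31.2% of the high group and 4.75% of the lowest. Cluster 5, led by Pgc, Pik3r3 and Mxd4, held 17.0% and 6.75%, and cluster 2, led by Ccl5, Cited1 and Lims2 and with the highest level of hypoxia genes, held 20.2% and 12.5%. Cluster 1, led by Crct1 and Ly6c1, held 13% and 16%, and cluster 4, led by Mxd3, Rgcc and Smoc2 with the highest level of G2M genes, 12% and 9.5%. Members were found in all 6 clusters, and their share of a cluster ran between 6.15% in cluster 0 and 57.9% in cluster 3.

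With high and low groups chosen inside each cluster, the summed early-response genes had a ratio above 1 in all 6, with a log2 ratio between 0.51 in cluster 2 and 1.43 in cluster 3. Jun was higher in each, between 2.04 and 2.34, and Atf3 between 1.95 and 3.71. Zfp36 lay between 1.75 and 3.46, Dusp1 between 1.77 and 3.09, Nr4a1 between 1.48 and 4, and Klf2 between 2.02 and 4.62. Summed over the clusters, groups chosen in this way left 6 of 10 AP-1 genes, 9 of 14 Egr-Ier-Klf-Nr4a genes and 10 of 19 decay and arrest genes higher. Of all 8739 genes tested in this way 596 were higher and 168 lower. The G2M list then had 1 gene higher and 2 lower with a median of -0.04, the S-phase list 0 and 0 with a median of 0.07, the hypoxia list 1 of 13 higher with a median of 0.34, and the glycolysis list 0 of 15.

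**Figure D4:**
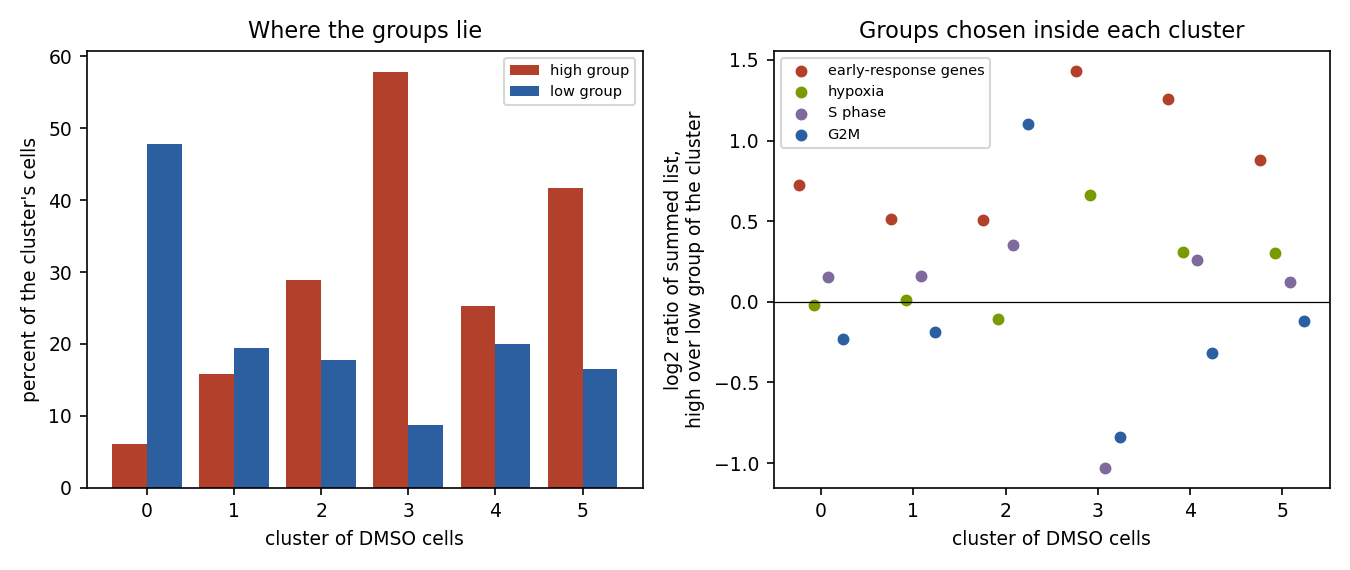
Left, percent of each cluster's DMSO cells in the immediate-early-high and in the lowest group, from 57.9% high in cluster 3 to 6.15% in cluster 0. Right, log2 ratio of summed lists for groups chosen inside each cluster: the early-response sum is above 0 in all 6, while the G2M sum is above 0 only in cluster 2 and the S-phase sum below 0 only in cluster 3.

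Of the 12 highest genes ranked by the lower bound of the ratio, among those with at least 20 CPM in an end group, 5 lay outside the early-response lists, and 4 of these encode secreted proteins. Mmp7, a matrix protease of secretory epithelium, had 137, 202, 473 and 928 CPM from the lowest to the highest group (log2 2.76, 2.68 to 2.84), and inside clusters its ratio lay between 0.54 and 1.95. Reg3g had 13.2, 30.4, 57.9 and 88.3 CPM, with 0.58 to 3.93 inside clusters. Lrg1, an acute-phase glycoprotein, had 38.2 CPM in the high group and 3.72 CPM in the lowest (log2 3.36). Of its high-group counts 14.0% came from 1 cell. Its ratio was below 0 only in cluster 5, at 1.31 and 1.48 CPM (log2 -0.18, -6.47 to 6.12), too few counts to give a direction. Spink4, a goblet-cell peptide, had 37.1 and 4.75 CPM (log2 2.97), with 22.2% of the high-group counts from 1 cell, and inside clusters its ratio lay between -0.49 in cluster 3 and 4.32 in cluster 1. Depp1, an autophagy regulator, had 298 and 55.3 CPM (log2 2.43) and was higher in every cluster, by 1.05 to 2.53. Reg3g and Mmp7 were above 0 in all 6 clusters, though the interval of Reg3g spanned 0 in cluster 5 (-0.47 to 1.69).

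At the other end, Lgals1, the lectin galectin-1, had 1410, 1117, 712 and 448 CPM from the lowest to the highest group (log2 -1.66, -1.71 to -1.60) and was below 0 in all 6 clusters, at -0.38 to -1.58. Tff1, a trefoil peptide of surface mucous cells, had 470, 356, 347 and 140 CPM (log2 -1.74, -1.83 to -1.65) and was below 0 in all 6 clusters. Its interval spanned 0 in clusters 3 (-1.57 to 0.47) and 5 (-0.81 to 0.09). Rilpl1, with 7.02 CPM in the high group and 30.9 CPM in the lowest (log2 -2.14), was below 0 in all 6 too. Its interval spanned 0 in clusters 2 (-1.87 to 1.14) and 5 (-2.44 to 0.15). Chic1 had the most negative ratio, with 1.90 and 26.0 CPM (log2 -3.78), but 47.1% of its few high-group counts came from 1 cell, and inside cluster 0 its ratio was 1.34. With groups chosen inside clusters its summed ratio was -0.26. Tom1l2 (-1.79), Itgae (-1.91), Khdc1a (-1.70), Tuba1a (-1.48), Msh5 (-1.54) and Wdr4 (-1.52) were the other genes lower with each step between groups. Ly6c1 (-1.74) and Cnfn (-1.68) had no such order, since both were highest in group 2, and 54.9% of Cnfn's high-group counts came from 1 cell.

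Lineage markers were mixed, where 13.8% of all tested genes were higher and 7.17% lower. Of 11 genes of neck-like metaplasia 4 were higher, among them Agr2, a protein-folding enzyme of secretory cells, with 922 CPM in the high group and 266 CPM in the lowest (log2 1.79, 1.73 to 1.86), and Clu, clusterin, with 5526 and 2881 CPM (0.94). Of 5 surface mucous genes 3 were higher and 1, Tff1, lower. Muc1, a membrane mucin, had 414 and 204 CPM (1.02), and Ctse, a protease of surface cells, 121 and 52.1 CPM (1.21). Of 10 stem cell markers 4 were higher: Prom1 (1.35), Cd24a (1.08), Lgr5 (0.93) and Alcam (0.81). With groups chosen inside clusters 1 of the 10 stem markers, 2 of 8 neck-like genes and 2 of 5 surface mucous genes were higher. In that setting 596 of all 8739 tested genes were higher. Of 8 squamous-type genes 1 was higher and 2 lower, and of 3 tuft-cell genes 0 were either. The goblet and intestinal list had 3 of 5 tested genes higher and 0 lower, with a median of 1.00. The chief, parietal and endocrine list had only 2 tested genes, both higher. These were Pgc with 13.5 and 1.86 CPM (log2 2.86) and Cblif with 10.3 and 1.34 CPM (2.93). Of Cblif's high-group counts 18.5% came from 1 cell.

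The cells were epithelial at both ends. Epcam, an epithelial adhesion protein, had 407 CPM in the high group and 307 CPM in the lowest, and Krt18, a simple-epithelial keratin, 3138 and 3387 CPM. Of 10 immune markers only Cd68, a lysosomal protein, had enough counts to test, with 22.6 and 14.7 CPM (log2 0.63). Lyz2 was at 0 in both groups and Ptprc had 4 counts in the high group and 3 in the lowest. Of 13 stromal and endothelial markers only Cdh5 was tested, with 33.1 and 47.0 CPM (log2 -0.50), and Col1a1 had 1 count in each group. Epcam, Krt18, Lyz2, Ptprc and Col1a1 were named to check the cell type, after their values were seen.

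Within the members the same genes graded further. The 100 members with the highest rule value were set against the 100 with the lowest, again as a description. Fos had 1971 CPM in the top 100 and 793 CPM in the bottom 100, and Fosb 319 and 90.2 CPM. Atf3 had 713 and 257 CPM (log2 1.47, 1.33 to 1.61), Nr4a1 201 and 86.6 CPM (1.22), Zfp36 618 and 274 CPM (1.17), Dusp1 209 and 107 CPM (0.96) and Jun 803 and 447 CPM (0.85). Myc had 67.5 and 68.6 CPM (-0.02, -0.37 to 0.32). Over the 400 members the Spearman correlation of Fos with Egr1 was 0.01 and of Fos with Fosb 0.22, while over all 1602 cells they were 0.60 and 0.57. Within the members these values are shaped by the choice on the sum of the 3 genes.

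Across all 1602 DMSO cells, the genes whose level per 10000 counts most resembled the rule value were Jun (Spearman 0.71), Zfp36 (0.69), Atf3 (0.68), Btg2 (0.56) and Nfkbia (0.54), chosen by this value, followed by Junb (0.51), Ier2 (0.50), Selenop (0.49), Hes1 (0.48) and Klf6 (0.48), among 4186 genes. The most negative were Eif5a (-0.46), Pfn1 (-0.42) and Lgals1 (-0.40). All cells share 1 library, and the values are descriptions. The 400 cells richest in NF-kappaB genes held 52.5% of the members and 9.50% of the lowest group, whereas the 400 richest in heat shock genes held 28.2% and 27.5%. Each such set is 400 of the 1602 cells. Of the NF-kappaB sum, Nfkbia gave 309 of 554 CPM in the high group and 68.0 of 243 CPM in the lowest. The 400 cells richest in G2M genes held 14.0% of the members and 37.2% of the lowest group.

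The same ranking was made in the pyrvinium library, whose cells the rule did not use. There the rule value had a median of 0.325 and 307 of 854 cells had none of the 3 genes, so the 213 cells with the highest value were set against those 307. These high cells began at a rule value of 0.692, below the median of 0.859 in the lowest DMSO group. This contrast therefore covers another range of the 3 genes than the DMSO contrast, and the ratios are not like for like. The high cells were deeper, with a median of 32448 counts against 21184, and the part of depth in what follows was not tested. Of 8178 genes tested there 206 (2.52%) were higher and 21 (0.257%) lower. Of the 52 early-response genes tested in both libraries 3 passed 1.5-fold in pyrvinium cells, and the median log2 ratio of the 52 was 0.10 in the pyrvinium library and 0.77 in the DMSO library. Jun was higher among the high pyrvinium cells (log2 0.73, 0.57 to 0.89), whereas Atf3 had 0.04 (-0.23 to 0.31), Zfp36 0.23 (0.07 to 0.39) and Nr4a1 0.32 (-0.13 to 0.78). Klf2 and Dusp1 had under 100 counts there. Of 1039 genes higher in the DMSO group and tested in pyrvinium cells, 44 were higher there, 2 lower and 813 above 0. The median log2 ratio of all genes tested in pyrvinium cells was itself 0.09. Of 520 genes lower in the DMSO group and tested in pyrvinium cells, 4 were lower there and 16 higher.

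**Figure D5:**
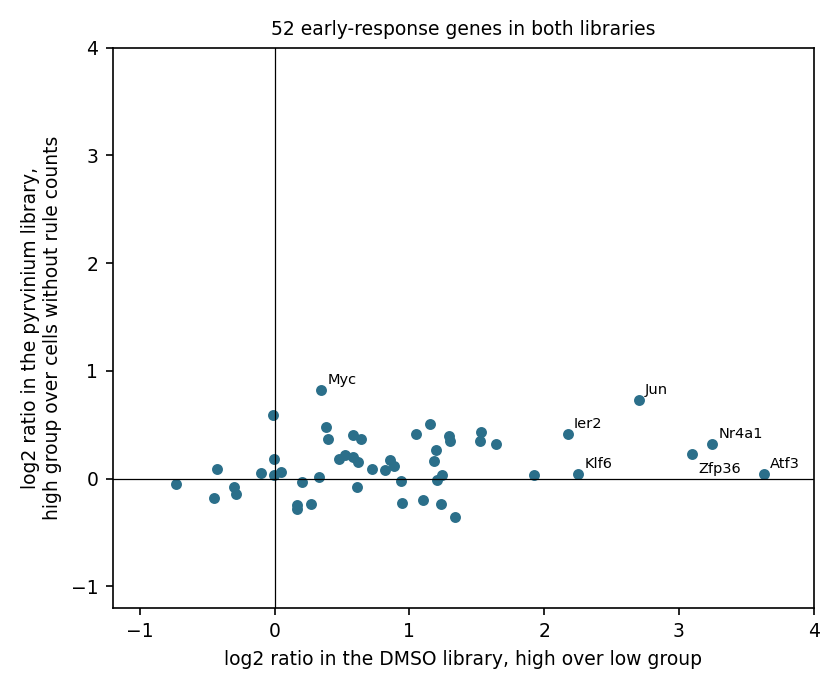
Log2 ratio of 52 early-response genes among pyrvinium cells (vertical, high group over cells without rule counts) against that among DMSO cells (horizontal, high over lowest group), without Fos, Fosb and Egr1. The DMSO ratios reach 3.63 for Atf3, while the pyrvinium ratios stay below 0.83, with Myc and Jun at the top. The pyrvinium high group began at a rule value of 0.692 and the DMSO high group at 10.3.

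Over whole libraries, Jun, Atf3, Nr4a1, Dusp1 and Klf2 had lower levels in pyrvinium cells than in the lowest DMSO group. Jun had 79.4 CPM in all pyrvinium cells, against 89.8 CPM in the lowest DMSO group, Atf3 25.7 against 33.4 CPM, Nr4a1 9.91 against 13.9 CPM and Dusp1 4.62 against 14.3 CPM. Zfp36 was between groups 1 and 2, with 67.6 CPM in pyrvinium cells against 45.0 and 88.0 CPM in these groups. Klf2 had 0.351 CPM in pyrvinium cells and 1.96 CPM in the lowest DMSO group. The 79 early-response genes together were not below that group, with 3560 CPM in pyrvinium cells against 3165 CPM. The decay and arrest list (1843 against 1304 CPM) and the Dusp list (178 against 90.6 CPM) were above it. The AP-1 list (354 against 397 CPM), the Egr-Ier-Klf-Nr4a list (386 against 455 CPM) and the delayed ERK targets (811 against 932 CPM) were below it. With 1 library per treatment, treatment and library cannot be told apart.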

How the data were processed

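Single cells of DMSO- and pyrvinium-treated Meta4 gastric organoids were profiled, with 1 library each. Per the labels' protocols, cells were captured with the PIPseq method and sequenced after preparation with the PIPseq T2 kit. Partek and build GRCm39 are named in the submitters' processing notes; aligner, counter and barcode filter were not given in the sources used here. The authors deposited whole-number counts per gene and barcode, not normalized, over 32227 genes. It is not stated if counts are molecules or reads.

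A DMSO cell had at least 9320 counts and a pyrvinium cell at least 13100. Counts were summed over the cells of each of the 4 rank groups and scaled to counts per 1000000, with exact Poisson and conditional binomial 95% intervals that cover counting error only. A gene with 0 counts in an end group was set against a floor of 3 counts. Doublets were not removed; an alternative left out the 5% of cells scored highest by Scrublet. Clusters came from 2000 variable genes, 30 principal components, 15 neighbours and the Leiden algorithm at resolution 0.5 (scanpy 1.11.5). The ratio computation was tested on simulated data.

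Named were the 12 highest and 12 lowest genes by the bound of the log2 interval closest to 0, with at least 20 CPM in an end group and without mitochondrial, ribosomal protein and unnamed models; members of the early-response lists with at least 10 CPM; and up to 4 members of each other list by size of ratio. The members and the 35 lists were chosen with earlier results of these data known. The alternatives changed the count threshold, group size, rule genes, depth, scaling, doublets, mitochondrial share, free RNA, clusters, count filter and fold limit. Numpy 2.4.6, scipy 1.17.1 and pandas 2.3.3 were used under Python 3.11.15.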

Additional observations from a re-analysis of the deposited data

Results flagged for a closer look

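Of the 24 genes named for their ratios, 3 passed the 1.5-fold limit in both libraries in opposite directions, each lower in the immediate-early-high group of the DMSO library and higher among the high pyrvinium cells. The difference between the libraries was not tested. The high pyrvinium cells began at a rule value of 0.692 and the DMSO high group at 10.3, so the contrasts are unlike. Itgae, an integrin subunit, had a log2 ratio of 0.60 among pyrvinium cells and -1.91 among DMSO cells. Cnfn, a cornified-envelope protein, had 0.74 among pyrvinium cells and -1.68 among DMSO cells, where 1 cell gave 54.9% of its high-group counts. Tuba1a, an alpha-tubulin, had 0.69 among pyrvinium cells and -1.48 among DMSO cells.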

How the results depend on the processing

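No paired analysis was possible because each treatment has 1 library. Of 3320 recomputed log2 ratios (166 named genes under 20 alternatives), 81 had another sign than in the main setting. The alternatives of count filter and fold limit leave every ratio as it was, so theirs could not change sign. Of these 73 were in genes inside the 1.5-fold limit and 8 in genes past it: Cd68 against groups 2 and 3 (-0.039), Adm (-0.15), Cd68 (-0.43), P4ha1 (-0.12) and Pmaip1 (-0.072) with cells ranked by Fosb alone, and Elk4 (-0.11), Etv5 (-0.13) and Trp53inp1 (-0.42) in cells thinned to 5000 counts. The 1194 higher genes became 606 with cells cut at the median, 457 against groups 2 and 3, 645 with Fosb alone, 736 with cells chosen on one random part of their counts and measured in the other, 307 thinned, 596 with groups chosen inside clusters and 305 at a 2-fold limit. The 620 lower genes became 326 with cells cut at the median, 268 against groups 2 and 3, 273 with Fosb alone, 397 with Egr1 alone, 281 thinned, 168 inside clusters and 147 at 2-fold. The early-response sum (log2 1.00) was 1.07 from 5000 counts per cell, 1.32 for the 10% of cells at each end, 0.64 with cells cut at the median, 0.56 against groups 2 and 3, 0.95 with Fos, 0.57 with Fosb and 0.79 with Egr1 alone, 0.96 as a mean over cells, 0.92 thinned, 0.95 within depth bins, 0.96 scaled by the median of ratios, 1.14 after subtraction of free RNA and 0.80 inside clusters. Of the lists, higher Dusp genes became 4 of 9 tested from 5000 counts per cell and 4 of 11 with cells cut at the median. They became 4 with at least 20 counts and 1 of 1 thinned. Delayed ERK targets became 1 of 12 with cells cut at the median and against groups 2 and 3, and 1 at 2-fold. Decay and arrest genes became 9 of 19 against groups 2 and 3, 7 of 19 with Fosb alone and 9 at 2-fold. Egr-Ier-Klf-Nr4a genes became 5 of 7 thinned. Among all tested genes, 1410 of 8951 were higher from 5000 counts per cell, 606 of 10586 with cells cut at the median and 307 of 3740 thinned. The numbers were 457 of 9994 against groups 2 and 3, 645 of 8526 with Fosb alone and 1772 of 12332 with at least 20 counts. The AP-1 count stayed within 1.5 times of 6 in all 20 alternatives. Thinning and the 2-fold limit leave fewer genes able to pass; for the others the cause was not tested. Counting depth limits genes under 100 counts, such as Egr2 and Egr3, and no replicate spread is known.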

Other observations

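The integrated stress response list had 4 of 20 genes lower and 2 higher in the immediate-early-high group. Of all tested genes 7.17% were lower and 13.8% higher, the share to set beside each list here. Shmt2, the mitochondrial serine hydroxymethyltransferase, had 46.6 CPM in the high group and 91.8 CPM in the lowest (log2 -0.98, 95% interval -1.15 to -0.81), and Phgdh, the first enzyme of serine synthesis, 147 and 281 CPM (-0.93, -1.03 to -0.84). With groups chosen inside clusters 7 of the 20 were lower and 2 higher, where 168 of all 8739 tested genes were lower and 596 higher. Of 16 unfolded protein genes 3 were higher and 0 lower, led by Dnajb9, a co-chaperone of the endoplasmic reticulum, with 18.9 and 6.5 CPM (log2 1.54), and Xbp1, a transcription factor of that response, with 247 and 132 CPM (0.91). Of 12 p53 targets 4 were higher, among them Btg2 and Bbc3, a BH3-only death protein, with 16.4 and 6.19 CPM (1.40). Of 13 Wnt targets 4 were higher, and Ephb2, an ephrin receptor of crypt cells, had 31.4 and 20.6 CPM (0.61). The nuclear RNA Malat1 had 146 and 77.5 CPM (0.91).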
